A study of Fukomys damarensis and Heterocephalus glaber and Cavia porcellus with 28 samples.

Results

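Cells meet fructose in 2 ways: they take it up from food, or they make it from glucose. Dietary fructose enters through hexose transporters of the SLC2 (GLUT) family, of which Slc2a5 (GLUT5) is the fructose carrier, and ketohexokinase (Khk) traps it as fructose 1-phosphate. The polyol pathway makes fructose inside the cell: aldose reductase turns glucose into sorbitol, and sorbitol dehydrogenase (Sord) oxidises sorbitol to fructose. Liver is the main site of fructose use, where the carbon can feed glycolysis, glucose output and fatty acid synthesis, and fructose use in the naked mole-rat has been discussed in connection with its tolerance of low oxygen.

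The genes described here are 7 members of these routes, chosen by name: the transporters Slc2a5, Slc2a8 and Slc2a9, the fructose-using enzymes Khk and Tkfc, and the polyol enzymes aldose reductase and Sord. They are 7 of the 13928 mouse gene identifiers listed in each of the heart and liver tables. For 6 of them the listed symbol matched an identifier directly; aldose reductase, listed as Akr1b1, is carried by the mouse symbol table as Akr1b3 and is called Akr1b3 below. The identifiers are ENSMUSG00000028976 (Slc2a5), ENSMUSG00000026791 (Slc2a8), ENSMUSG00000005107 (Slc2a9), ENSMUSG00000029162 (Khk), ENSMUSG00000034371 (Tkfc), ENSMUSG00000001642 (Akr1b3) and ENSMUSG00000027227 (Sord).

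The series sequenced ribosome-depleted total RNA from 4 rodent species in 28 libraries of 18 animals, 10 of which gave both tissues. Naked mole-rats (Heterocephalus glaber, 13 to 17 months old) gave 3 hearts and 4 livers, and Damaraland mole-rats (Fukomys damarensis, 36 to 48 months old) gave 5 of each. The outgroups were guinea pigs (Cavia porcellus, 2.3 months old), with 3 of each, and mice (Mus musculus, 2 months old), with 3 hearts and 2 livers. All animals were male apart from 1 female Damaraland mole-rat, which gave liver replicate 4. Each library is a separate animal within its tissue, no animal is labelled as treated, and species and age cannot be told apart, since no species shares an age with another. A single Damaraland animal is labelled 48 months old in heart and 36 in liver.

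Values are the deposited variance-stabilised expression values, which run close to log2 of scaled reads at high levels and flatten towards a floor, 5.36 in heart and 4.29 in liver, where a gene has 0 reads. A 2-fold change starting from 1000 scaled reads moved the heart value by 0.95 and the liver value by 0.97, whereas starting from 10 scaled reads it moved them by 0.28 and 0.39. Read numbers were recovered from the values and are given where they are low, or scaled to a library total of 1000000 reads (RPM). Recovered depth was 4089633 to 26985779 reads in heart and 11220505 to 21467939 in liver, and naked mole-rat heart replicate 3 was the shallowest library. Differences between species were tested with limma across all genes of a tissue, and a difference passed when its Benjamini-Hochberg adjusted p was under 0.05 and its size at least 1 on the value scale. The main contrast set the mean of both mole-rat species against the mean of guinea pig and mouse. The 6 species pairs were tested in the same fit. Levels were not corrected for gene length, so values are not compared between genes. Each gene is compared between species, where transcript length and read assignment can differ and were not corrected for. Their part in the species differences was not tested.

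The tissues carried their defining markers. The 7 cardiomyocyte markers summed to 50924 to 149342 RPM in heart and 43.8 to 281.8 in liver. The 5 hepatocyte markers in the tables (Alb, Ttr, Fgb, Apoa1 and Cps1) summed to 76288 to 169625 RPM in liver. In heart these hepatocyte markers summed to 749.8 to 1933 RPM in naked mole-rats, 261.3 to 517.1 in Damaraland mole-rats, 292.2 to 446.3 in guinea pigs and 19.5 to 66.2 in mice, with no marker at 0 in every library of a species. In heart, 4 of the 5 were higher in mole-rats than in outgroups in the main contrast, as were 10.8% of all genes. In these bulk tissues, fewer cells of a type and less RNA per cell cannot be told apart.

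In heart, the fructose carrier Slc2a5 was higher in both mole-rats than in both outgroups, and it was the 1 member of 7 that passed in the main contrast, where 23.4% of all genes passed in either direction and 10.8% in the higher one. The other 6 members followed no common order of species. Over the 42 comparisons of 7 members and 6 species pairs, 17 (40.5%) passed, against 32.9% over all genes. In liver, 4 of 7 members passed in the main contrast, 3 of them higher and 1 lower in mole-rats, where 28.1% of all genes passed, 15.1% higher and 13% lower. Of the 42 liver comparisons 24 (57.1%) passed, against 37.6% over all genes. The liver order that recurred had guinea pig at the bottom: Slc2a5, Slc2a8, Khk and Tkfc were each lower in guinea pigs than in each of the other 3 species, and 4.28% of all genes were.

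**Figure D1:**
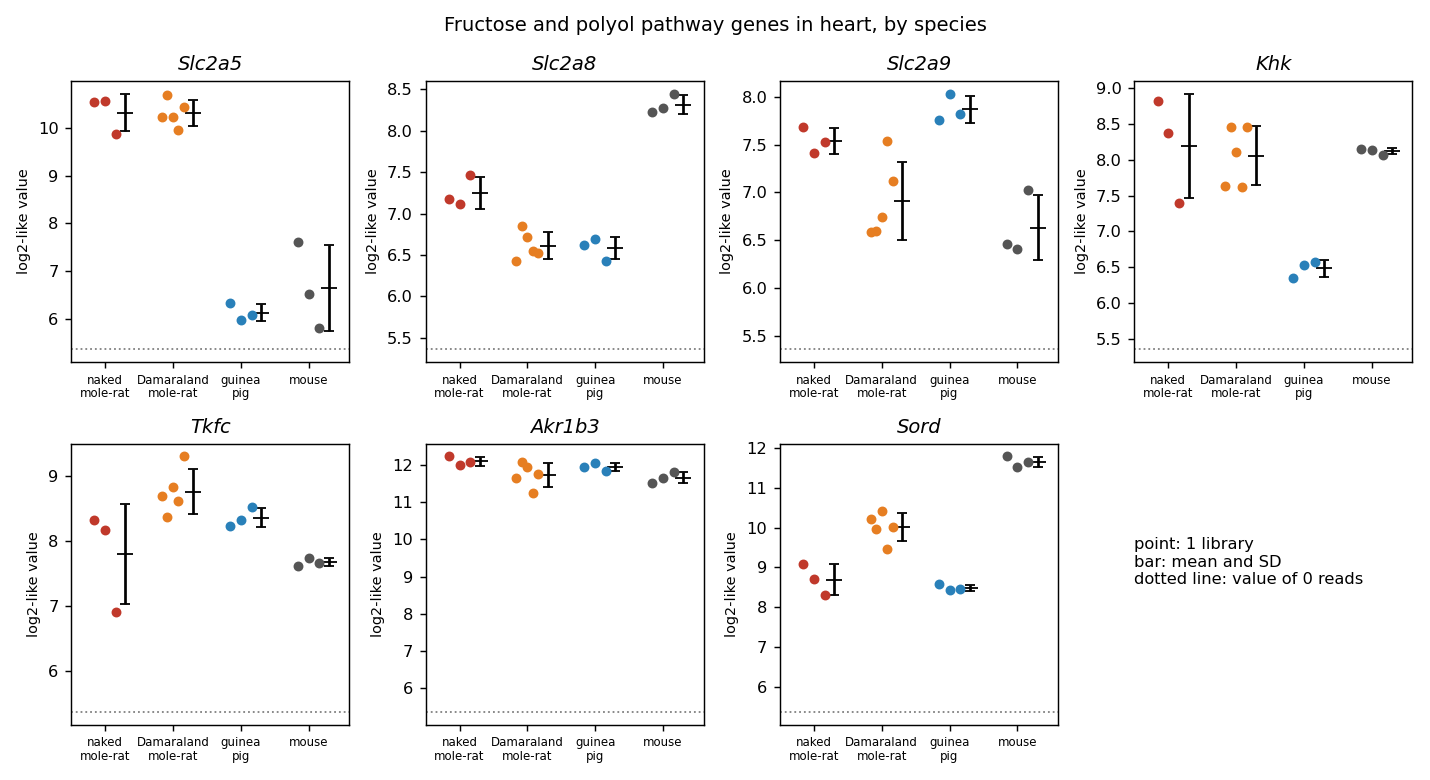
Heart values of the 7 genes by library (variance-stabilised, log2-like scale), 1 panel a gene, with each point 1 library, bars for the species mean and SD, and a dotted line at the value of 0 reads. Slc2a5 lies between 9.87 and 10.70 in the 8 mole-rat libraries and between 5.81 and 7.60 in the 6 outgroup libraries.

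Slc2a5 encodes GLUT5, the transporter with high selectivity for fructose, best known from the small intestine, kidney and sperm. In heart its values were 10.54, 10.56 and 9.87 in naked mole-rats and 10.23, 10.70, 10.23, 9.96 and 10.45 in Damaraland mole-rats. They were 6.32, 5.98 and 6.08 in guinea pigs and 7.60, 6.52 and 5.81 in mice. Every mole-rat library lay above every outgroup library, and the 2 mole-rat species overlapped. In reads, the guinea pig hearts held 10 to 29 and the mouse hearts 5 to 182, whereas the mole-rat hearts held 231 to 2210, the lowest of them in the shallowest library.

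The naked mole-rat hearts averaged 10.32 ± 0.39 (SD, n = 3) and the Damaraland hearts 10.31 ± 0.28 (SD, n = 5) for Slc2a5, whereas the guinea pig hearts averaged 6.13 ± 0.18 (SD, n = 3) and the mouse hearts 6.65 ± 0.90 (SD, n = 3). Mole-rats exceeded outgroups by 3.93 (SE 0.22, limma adjusted p = 2e-10). All 4 pairings of a mole-rat with an outgroup passed, with differences of 3.67 to 4.20, and 2.06% of all heart genes were higher in mole-rats in all 4. On recovered reads tested with voom, where low levels are not flattened, the mole-rat to outgroup ratio was 67.9-fold (33.3 to 138.7 at 2 SE either side). Naked and Damaraland mole-rat differed by 0.01 (limma adjusted p = 0.98), and guinea pig and mouse by -0.52 (limma adjusted p = 0.187). The mouse hearts spread the most, with replicate 1 at 182 reads and replicate 3 at 5, and guinea pig minus mouse was -0.04 without the former and -0.94 (limma adjusted p = 0.016) without the latter. The 6 leukocyte markers in the table, as another cell population of heart, summed to 32.8 to 75.1 RPM in naked mole-rats, 63.2 to 94.2 in Damaraland mole-rats, 53.1 to 79.6 in guinea pigs and 58.2 to 84.2 in mice. Of 4 smooth muscle markers 3 were higher in mole-rats in the main contrast, as were 10.8% of all genes. Their sums were 278.2 to 366.2 RPM in the naked and 653.7 to 1084 in the Damaraland hearts. The guinea pig hearts had 128.7 to 217.6 and the mouse hearts 116.6 to 316.5. In the same order of species, fibroblast markers summed to 656 to 1555, 812 to 3214, 3345 to 9520 and 405 to 570 RPM. The 6 genes listed as skeletal muscle markers summed to 1435 to 1833, 8879 to 13645, 5412 to 5580 and 2514 to 2909 RPM. Whether these reads came from skeletal muscle or from the cardiomyocytes themselves was not tested, so the sums do not measure skeletal muscle in these hearts. The part of other cell types in the Slc2a5 difference was not tested.

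In liver the same transporter separated guinea pig from the rest. Slc2a5 values were 8.03, 8.13, 9.87 and 7.74 in naked mole-rats, 9.74, 9.43, 8.93, 7.98 and 7.59 in Damaraland mole-rats, 4.89, 4.71 and 4.67 in guinea pigs, and 7.25 and 7.85 in mice. The guinea pig livers held 5, 2 and 2 reads, close to the floor, and the mouse livers 98 and 266. The mouse values overlapped those of both mole-rats. Naked mole-rat liver replicate 3, at 1060 reads, stood above the other naked livers at 176 to 242.

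Mole-rat livers exceeded outgroup livers in Slc2a5 by 2.44 (SE 0.36, limma adjusted p = 1.32e-05), an average over outgroups that differed from each other. Naked mole-rat exceeded guinea pig by 3.69 and Damaraland mole-rat by 3.98, and guinea pig lay below mouse by 2.79 (limma difference guinea pig minus mouse -2.79, adjusted p = 0.000559). Against mouse, the naked difference of 0.90 (limma adjusted p = 0.165) and the Damaraland difference of 1.19 (limma adjusted p = 0.0613) did not pass. The naked difference from mouse was 0.42 (limma adjusted p = 0.45) without naked replicate 3 and 0.60 (limma adjusted p = 0.509) without mouse replicate 1. The Damaraland difference from mouse passed when Damaraland replicate 4 (1.38) or 5 (1.47) or naked replicate 3 (1.19, adjusted p = 0.0238) was left out. With the replicate number as a block both differences from mouse passed, at 1.65 for Damaraland and 1.08 for naked mole-rat. That number is a library label shared by different animals, so no weight is put on those 2 passes. The 3 Damaraland livers labelled 36 months had the 3 highest values and the 2 labelled 48 months the lowest. In heart, the 2 libraries labelled 36 months (10.70 and 10.45) were above the 3 labelled 48 months (9.96 to 10.23). The tissues are not separate evidence here: the 10 libraries come from 6 animals, 4 of which gave both, and both 36-month hearts are from animals that also gave 36-month livers. The animal with conflicting ages is a 48-month heart and a 36-month liver, and 1 of the 2 livers labelled 48 months is from the female.

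Slc2a8 encodes GLUT8, a hexose transporter held mostly on internal membranes, which carries glucose and fructose. In heart it was highest in mice, at 8.22, 8.28 and 8.45, against 7.17, 7.11 and 7.46 in naked mole-rats, 6.43, 6.85, 6.71, 6.55 and 6.52 in Damaraland mole-rats and 6.62, 6.69 and 6.43 in guinea pigs. The mouse libraries lay above all others and held 300 to 338 reads, and the naked libraries lay above those of Damaraland mole-rat and guinea pig. Mouse was higher than naked mole-rat by 1.07, than Damaraland mole-rat by 1.70 (limma difference Damaraland minus mouse -1.70) and than guinea pig by 1.73, a place at the top that 6.6% of all heart genes shared. The naked to mouse difference passed narrowly: without naked replicate 2 it was -0.997, short of the size threshold. The naked to Damaraland difference of 0.63 (limma adjusted p = 0.00107) fell short of that threshold on the value scale, and voom on recovered reads put it at 2.23-fold.

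In liver the order of Slc2a8 was another one. Damaraland mole-rat was highest, at 8.85, 9.53, 9.24, 9.52 and 9.05, naked mole-rat had 7.72, 7.78, 7.08 and 7.79, and mouse had 8.24 and 7.77. Guinea pig livers were at 4.83, 5.06 and 4.56, which are 4, 7 and 1 reads. The Damaraland livers lay above all others, the guinea pig livers below all others, and naked mole-rat and mouse overlapped. Damaraland mole-rat exceeded naked mole-rat by 1.65 (limma difference naked minus Damaraland -1.65, adjusted p = 8.52e-07), guinea pig by 4.42 and mouse by 1.24, and 5.51% of all liver genes were higher in that species than in each other one. The Damaraland to mouse difference was 0.997 without mouse replicate 2, short of the size threshold. Naked mole-rat and mouse differed by -0.41 (limma adjusted p = 0.155), and by -0.18 to -0.65 without naked replicate 3 or either mouse replicate. In the main contrast mole-rats were higher by 2.00 (SE 0.16, limma adjusted p = 9.49e-09).

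Slc2a9 encodes GLUT9, known chiefly as a urate transporter and also tied to hexose transport. In heart mole-rats and outgroups differed by -0.02 (SE 0.16, limma adjusted p = 0.905), with values of 7.68, 7.41 and 7.53 in naked mole-rats, 6.59, 6.59, 6.74, 7.53 and 7.12 in Damaraland mole-rats, 7.76, 8.03 and 7.82 in guinea pigs and 6.47, 6.41 and 7.03 in mice. Guinea pig libraries were all highest, and Damaraland libraries overlapped both mouse and naked mole-rat. Guinea pig exceeded mouse by 1.23 (SE 0.23, limma adjusted p = 0.000259), the 1 of 6 pairs that passed. Other settings moved further pairs past the size threshold. Damaraland minus guinea pig, -0.95 as fitted, became -1.11 without Damaraland replicate 4, -1.003 without Damaraland replicate 5, -1.01 without guinea pig replicate 1 and -1.23 with the replicate block. Naked minus mouse, 0.91 as fitted, became 1.10 without mouse replicate 3. On recovered reads voom passed 4 of the 6 pairs.

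In liver Slc2a9 was lowest in naked mole-rats, at 8.82, 8.92, 8.64 and 9.49. Damaraland mole-rat had 10.24, 9.80, 9.84, 10.02 and 10.48, guinea pig 9.59, 9.50 and 9.87, and mouse 9.79 and 9.66. Every naked library lay below every library of the other 3 species, the closest libraries being at 9.49 and 9.50. Naked minus Damaraland was -1.11 (SE 0.18, limma adjusted p = 3.51e-05), the single pair that passed, and without naked replicate 3 it was -0.999. The naked to guinea pig (-0.68, limma adjusted p = 0.00727) and naked to mouse (-0.75, limma adjusted p = 0.00898) differences were under the size threshold.

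Khk, ketohexokinase, phosphorylates fructose at carbon 1, the committed step of fructose use. In heart it was low in guinea pigs and at overlapping levels in the other 3 species. Values were 8.81, 8.37 and 7.40 in naked mole-rats, 7.63, 8.45, 8.11, 7.62 and 8.45 in Damaraland mole-rats, 6.35, 6.53 and 6.58 in guinea pigs and 8.15, 8.13 and 8.07 in mice. Guinea pig libraries (31 to 39 reads) lay below all others, while naked mole-rat, Damaraland mole-rat and mouse overlapped. The shallowest library, naked replicate 3, held 26 Khk reads and was the lowest of the mole-rat hearts.

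Heart Khk was lower in guinea pigs than in naked mole-rats (naked minus guinea pig 1.71, SE 0.29, limma adjusted p = 9.79e-05), Damaraland mole-rat (1.57, SE 0.26, adjusted p = 7.05e-05) and mouse (guinea pig minus mouse -1.63, adjusted p = 0.000157), and 2.62% of all heart genes were lowest in guinea pig in that way. On recovered reads voom put the 3 ratios over guinea pig at 9.77-fold, 7.06-fold and 7.75-fold. Naked mole-rat differed from mouse by 0.07 and Damaraland mole-rat by -0.07 (limma adjusted p = 0.838 and 0.839). Without naked replicate 3, naked minus mouse was 0.47 (limma adjusted p = 0.104) and naked minus Damaraland 0.54 (limma adjusted p = 0.0498). The main contrast, 0.82 (SE 0.20), was under the size threshold; without naked replicate 3 it was 1.02 and passed, as did voom on recovered reads (2.98-fold, adjusted p = 0.000199). The summed hepatocyte markers given above were higher in guinea pig heart than in mouse heart and highest in naked mole-rat heart, and their part in the Khk values was not tested.

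In liver Khk was again lowest in guinea pigs. Its values were 11.96, 12.21, 12.94 and 12.29 in naked mole-rats, 13.70, 13.19, 13.65, 13.34 and 12.98 in Damaraland mole-rats, 11.06, 10.94 and 11.25 in guinea pigs and 12.80 and 13.22 in mice. Every guinea pig liver lay below every other liver, every Damaraland liver lay above every naked liver, and mouse overlapped both mole-rats. Guinea pig was lower than Damaraland mole-rat by 2.29 (Damaraland minus guinea pig, SE 0.22, limma adjusted p = 8.06e-08), than mouse by 1.93 (SE 0.27) and than naked mole-rat by 1.27 (SE 0.23). Voom ratios over guinea pig were 4.96-fold, 3.84-fold and 2.43-fold in the same order.

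Naked minus Damaraland for liver Khk was -1.02 (SE 0.20, limma adjusted p = 0.000251), just past the size threshold. It fell under that threshold without Damaraland replicate 1 (-0.94) or 3 (-0.95), without naked replicate 1 (-0.89) or 2 (-0.98), and with libraries centred on their medians (-0.99), with an adjusted p of at most 0.00165 in all 5 settings. The main contrast, 0.81 (SE 0.17, limma adjusted p = 0.000421), did not reach the size threshold.

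Tkfc encodes triokinase, which phosphorylates the glyceraldehyde left when fructose 1-phosphate is split. Heart values were 8.32, 8.17 and 6.91 in naked mole-rats, 8.70, 8.37, 8.83, 8.62 and 9.31 in Damaraland mole-rats, 8.24, 8.33 and 8.53 in guinea pigs and 7.62, 7.75 and 7.66 in mice. Neighbouring species in the order Damaraland mole-rat, guinea pig, naked mole-rat, mouse overlapped, and the main contrast was 0.26 (limma adjusted p = 0.247). Damaraland minus mouse passed at 1.09 (SE 0.26, limma adjusted p = 0.00156) but not without Damaraland replicate 5 (0.95) or with the replicate block (0.96). Naked minus Damaraland was -0.97 (limma adjusted p = 0.00427) and passed in 5 other settings, at -1.002 to -1.227, among them leaving out naked replicate 1 or 2 or Damaraland replicate 2 or 4. Without naked replicate 3, the shallowest library, which held 14 Tkfc reads, it was -0.52 (limma adjusted p = 0.0308). Leaving out the same library moved the main contrast to 0.49 (limma adjusted p = 0.00536), still under the size threshold.

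In liver Tkfc was far lower in guinea pigs than in the other 3 species. Values were 12.06, 12.36, 12.14 and 12.91 in naked mole-rats, 14.01, 13.44, 13.68, 13.45 and 13.22 in Damaraland mole-rats, 9.01, 9.20 and 9.34 in guinea pigs and 12.77 and 12.98 in mice. The guinea pig libraries, at 666 to 899 reads, lay below all others, the Damaraland libraries lay above all others, and mouse overlapped naked mole-rat. The species means were 12.37 ± 0.39 (SD, n = 4), 13.56 ± 0.30 (SD, n = 5), 9.18 ± 0.16 (SD, n = 3) and 12.88 ± 0.15 (SD, n = 2) in that order.

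Mole-rats exceeded outgroups in liver Tkfc by 1.93 (SE 0.16, limma adjusted p = 1.24e-08). By pairs, Damaraland minus guinea pig was 4.38, naked minus guinea pig 3.18 and guinea pig minus mouse -3.69, with limma adjusted p of 1.03e-11, 1.02e-09 and 2.72e-09. Voom ratios over guinea pig were 22.1-fold, 9.63-fold and 13.7-fold for Damaraland mole-rat, naked mole-rat and mouse. Damaraland mole-rat exceeded naked mole-rat by 1.19 (naked minus Damaraland -1.19, limma adjusted p = 3e-05). Neither mole-rat passed against mouse, at 0.68 for Damaraland (adjusted p = 0.0187, under the size threshold) and -0.51 for naked mole-rat (adjusted p = 0.079).

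**Figure D2:**
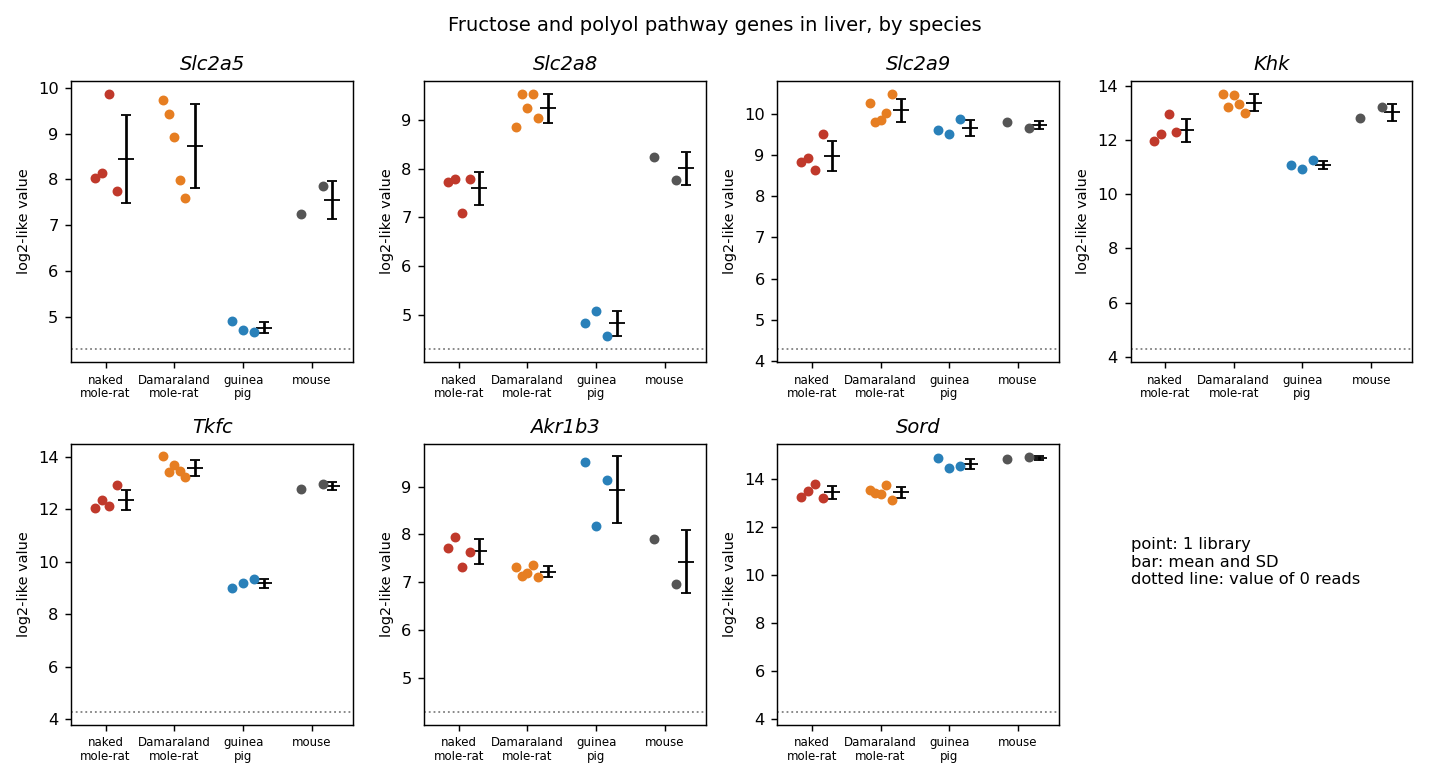
Liver values of the 7 genes by library (variance-stabilised, log2-like scale), 1 panel a gene, with each point 1 library, bars for the species mean and SD, and a dotted line at the value of 0 reads. Guinea pig lies lowest for Slc2a5, Slc2a8, Khk and Tkfc (Tkfc 9.01 to 9.34 against 12.06 to 14.01 elsewhere), and for Sord the mole-rats at 13.13 to 13.82 lie below the outgroups at 14.49 to 14.94.

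Guinea pig livers also differed from the others in leukocyte markers. Their leukocyte markers summed to 280.4 to 325.4 RPM, against 61.7 to 145.5 in naked mole-rats, 102.6 to 161.5 in Damaraland mole-rats and 110.2 to 110.5 in mice. Against mouse, 3 of 6 leukocyte, 4 of 6 endothelial and 3 of 5 fibroblast markers were higher in guinea pigs, as were 18.8% of all liver genes. Against naked mole-rat it was 3, 1 and 2 (18.5% of all genes), with 1 fibroblast marker lower (19.4%). Against Damaraland mole-rat it was 2, 3 and 3 (17.1%). Bile duct markers summed to 66.5 to 189.5 RPM in guinea pigs and 142.6 to 210.3 in naked mole-rats, which overlapped. Damaraland mole-rats had 11.5 to 40.9 and mice 28.1 to 52.3. The summed hepatocyte markers of guinea pig liver, 76288 to 110642 RPM, spanned those of mouse, 84662 to 97570. The 5 adipocyte markers summed to 53.4 to 282.0 RPM in the Damaraland livers, 8.22 to 15.3 in the naked, 1.86 to 4.57 in the guinea pig and 12.6 to 12.9 in the mouse livers. Of the hepatocyte markers, 1 of 5, Apoa1, was lower in guinea pigs than in mice, as were 18.4% of all liver genes. The part of cell composition in the liver values was not tested.

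Akr1b3, aldose reductase, opens the polyol pathway by reducing glucose to sorbitol. Heart values ran from 11.24 to 12.23 in all 14 libraries: 12.23, 12.00 and 12.08 in naked mole-rats, 11.65, 12.09, 11.94, 11.24 and 11.76 in Damaraland mole-rats, 11.93, 12.06 and 11.84 in guinea pigs, and 11.53, 11.65 and 11.81 in mice. Of 6 species pairs 0 passed by limma, 1 had an unadjusted p under 0.05 (naked minus mouse 0.44, limma adjusted p = 0.058), and 0 passed by voom. The main contrast was 0.12 (SE 0.13, limma adjusted p = 0.443), and the voom ratio was 1.09-fold, or 0.905 to 1.30 at 2 SE either side.

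In liver Akr1b3 was highest in guinea pigs, at 9.51, 8.17 and 9.14, against 7.71, 7.94, 7.31 and 7.64 in naked mole-rats, 7.31, 7.12, 7.19, 7.36 and 7.11 in Damaraland mole-rats and 7.90 and 6.96 in mice. Every guinea pig library lay above every library of the other 3 species, which overlapped. Guinea pig exceeded Damaraland mole-rat by 1.72 (limma adjusted p = 1.59e-05), mouse by 1.51 (adjusted p = 0.000677) and naked mole-rat by 1.29 (adjusted p = 0.000448), and 5.1% of all liver genes were highest in guinea pig in this way. The main contrast of -0.75 (adjusted p = 0.0031) was under the size threshold. Aldose reductase has close relatives in the genome, Akr1b7, Akr1b8 and Akr1b10, which are not described singly here. They were on the polyol and osmolyte list counted below, of which 12 of 17 genes were in the tables. Whether reads are shared with them was not measured, so its counts are uncertain to that extent.

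Sord, sorbitol dehydrogenase, closes the polyol pathway by oxidising sorbitol to fructose. In heart it was highest in mice, at 11.80, 11.54 and 11.66, and next in Damaraland mole-rats, at 10.23, 9.97, 10.42, 9.45 and 10.02. Naked mole-rat had 9.09, 8.70 and 8.29 and guinea pig 8.58, 8.43 and 8.47. The mouse and Damaraland libraries each formed a range of their own, and naked mole-rat overlapped guinea pig.

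For heart Sord, 5 of 6 pairs passed, the most of any member in heart. Against mouse the differences were -3.17 for guinea pig (limma adjusted p = 5.38e-09), -2.97 for naked mole-rat (adjusted p = 8.95e-09) and -1.64 for Damaraland mole-rat (adjusted p = 2.32e-06). Damaraland mole-rat exceeded guinea pig by 1.53 and naked mole-rat by 1.32 (adjusted p = 6.18e-06 and 3.06e-05). Naked mole-rat and guinea pig differed by 0.20 (limma adjusted p = 0.454), or by 0.41 (limma adjusted p = 0.133) without naked replicate 3. The 2 mole-rats thus stood apart from each other, and the main contrast, -0.72 (SE 0.15, adjusted p = 0.000543), was under the size threshold.

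In liver Sord was the 1 member lower in both mole-rats than in both outgroups. Values were 13.27, 13.50, 13.82 and 13.23 in naked mole-rats and 13.55, 13.43, 13.37, 13.79 and 13.13 in Damaraland mole-rats, against 14.88, 14.49 and 14.58 in guinea pigs and 14.84 and 14.94 in mice. All 9 mole-rat livers lay below all 5 outgroup livers. The difference was -1.31 (SE 0.15, limma adjusted p = 5.37e-07), a voom ratio of 2.49-fold. All 4 pairings passed, at -1.19 to -1.44, and 2.87% of all liver genes were lower in mole-rats in all 4. The 2 mole-rats had the same mean to within 0.01 (limma adjusted p = 0.988), and guinea pig and mouse differed by -0.24 (adjusted p = 0.408).

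**Figure D3:**
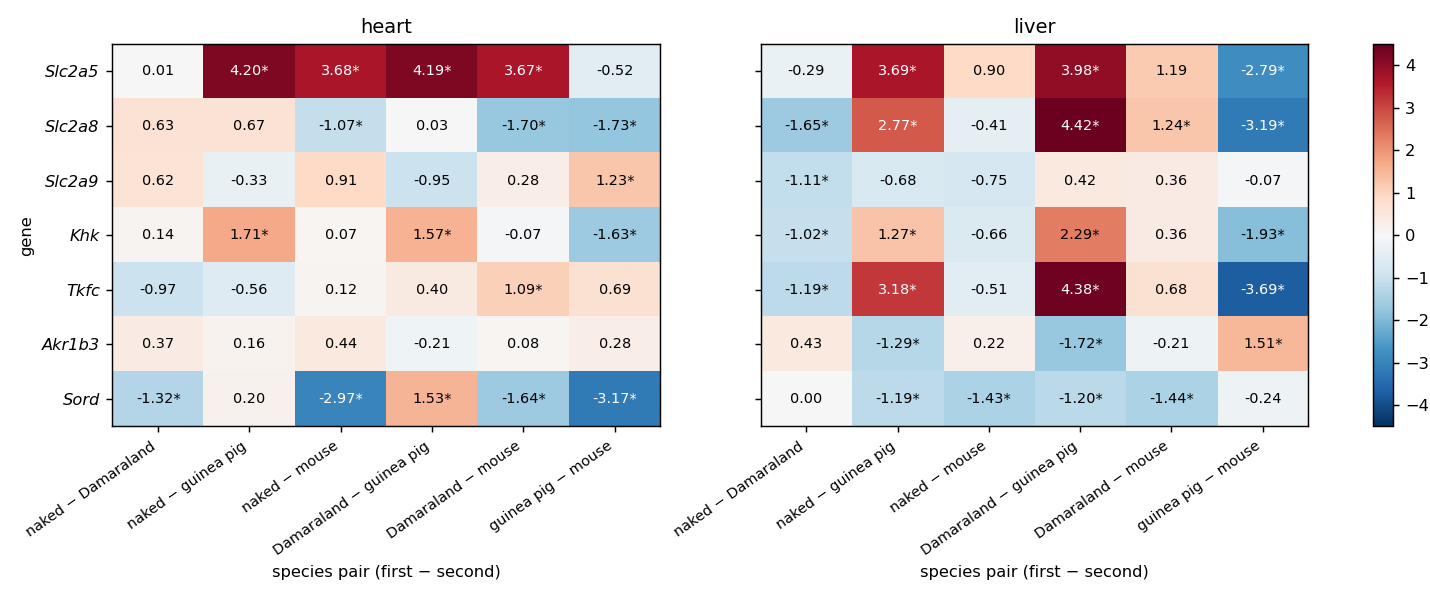
Differences between species for each gene (rows) and species pair (columns, first minus second) in heart and in liver on the variance-stabilised scale, with red for higher and blue for lower in the first species and an asterisk where the limma test passed. Slc2a5 in heart passes in all 4 mole-rat to outgroup pairs (3.67 to 4.20), and Sord in liver in all 4 on the other side (-1.19 to -1.44).

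The 2 mole-rats were set apart in liver by 4 members, Slc2a8, Slc2a9, Khk and Tkfc, all lower in naked mole-rats, where 34.2% of all genes passed in either direction and 17.6% in the lower one. In heart 1 member, Sord, passed between them, against 29.4% of all genes. Between guinea pig and mouse, 5 of 7 members passed in liver (37.2% of all genes) and 4 of 7 in heart (32.1%). Naked mole-rat and guinea pig were separated by 6 of 7 members in liver (37.8%) and 2 in heart (33%). For Damaraland mole-rat and guinea pig it was 6 in liver (36.2%) and 3 in heart (29.7%). The fewest liver calls were against mouse, with 1 member for naked mole-rat (Sord, 41.2% of all genes) and 2 for Damaraland mole-rat (Sord and Slc2a8, 39.2%), and mouse liver rests on 2 libraries. Heart against mouse gave 3 members for naked mole-rat (38.2%) and 4 for Damaraland mole-rat (34.9%). The comparisons share libraries and are not independent of each other.

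Heart and liver were set side by side in RPM, with no test, since the tables were made separately. Slc2a5 was higher in heart than in liver in the mole-rats, at 80.5 against 24.0 in naked and 89.8 against 34.0 in Damaraland mole-rats. It was 0.937 against 0.163 in guinea pigs and 2.83 against 11.6 in mice, so mouse alone of the 4 species had more of it in liver. Single libraries carried part of these means: without liver replicate 3 the naked liver mean was 13.5 RPM, and without heart replicate 1 the mouse heart mean was 0.868 RPM. Akr1b3 was higher in heart in every species, by 27.1-fold in naked mole-rats, 30.1-fold in Damaraland mole-rats, 8.33-fold in guinea pigs and 15.5-fold in mice. The mouse ratio rests on a liver mean of 10.9 RPM, which was 6.64 without liver replicate 1.

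Khk was a liver gene in every species, with heart levels of 15.5, 14.6, 2.05 and 10.8 RPM in naked mole-rat, Damaraland mole-rat, guinea pig and mouse and liver levels of 336, 798, 161 and 624. Tkfc followed the same split in 3 species (10.96 against 342, 27.4 against 912 and a range of 6.48 to 7.66 over libraries against a mean of 565 in naked mole-rat, Damaraland mole-rat and mouse), while in guinea pigs it was 19.6 in heart and 41.5 in liver. Sord was higher in liver throughout, at 711, 832, 1951 and 2282 in the same order of species, against 22.6, 72.8, 21.8 and 170.5 in heart. Slc2a9 was also higher in liver in each species, from 30.2 RPM in naked to 79.2 in Damaraland mole-rats. Slc2a8 split by species: 42.5 in liver against 2.47 in heart in Damaraland mole-rats, 0.251 against 2.44 in guinea pigs (0.125 in liver without replicate 2), and overlapping libraries in naked mole-rats and mice.

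**Figure D4:**
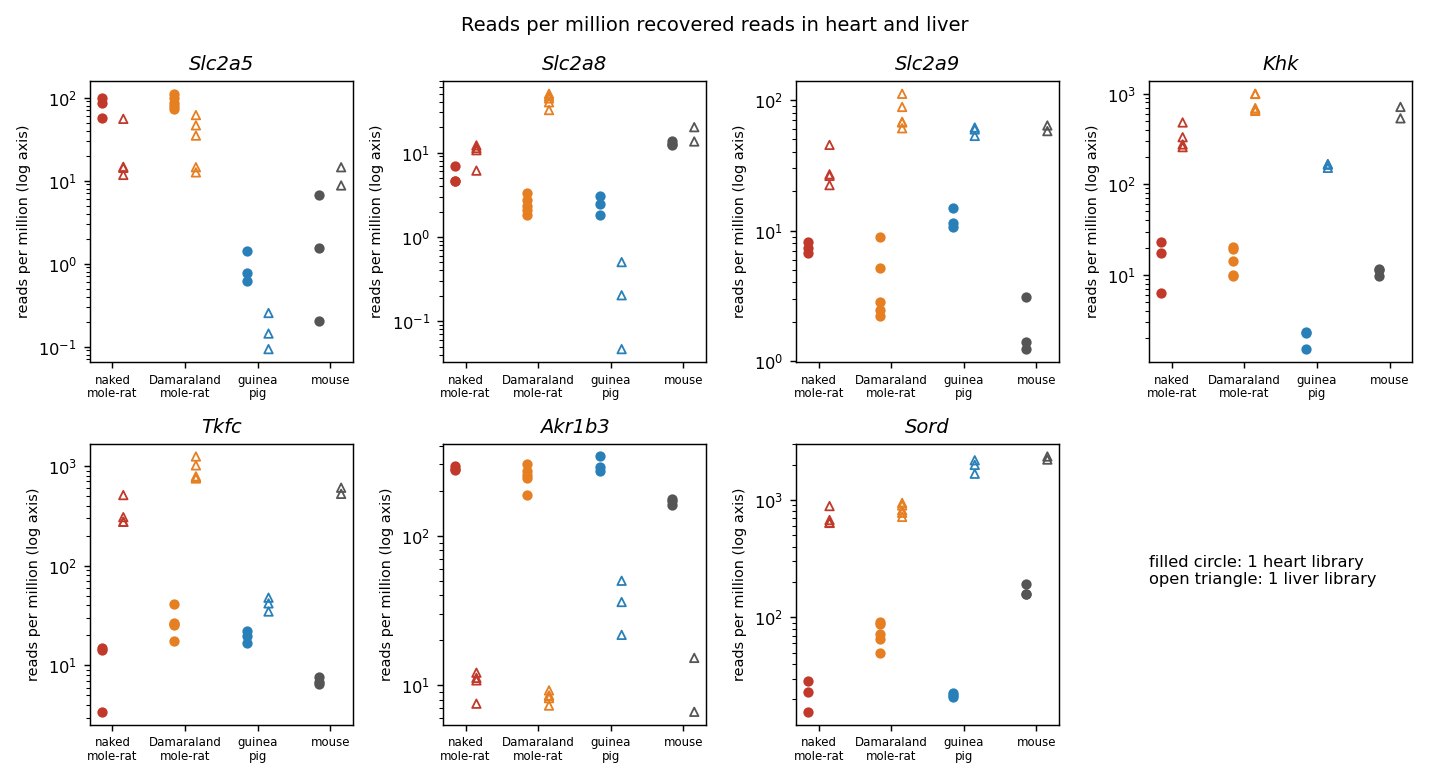
RPM of the 7 genes in heart and liver of the 4 species on a log axis, with filled circles for heart libraries and open triangles for liver libraries. Slc2a5 is at 56.5 to 111.1 in the mole-rat hearts and at 0.203 to 6.74 in the outgroup hearts, and the guinea pig livers are lowest for Slc2a5 and Slc2a8.

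For the liver enzymes, the heart level as a share of the liver level can be read beside the same share of the hepatocyte markers. The summed hepatocyte markers in heart were 1.12% of their liver level in naked mole-rats, 0.278% in Damaraland mole-rats, 0.367% in guinea pigs and 0.0385% in mice. The shares of Khk were 4.62%, 1.83%, 1.27% and 1.74%, and those of Tkfc 3.20%, 3.01%, 47.2% and 1.24%. Sord gave 3.17%, 8.75%, 1.12% and 7.47%. Each share of the 3 enzymes was above that of the markers in its species. The part of hepatocyte RNA in the heart values of these enzymes was not tested. Slc2a5 and Akr1b3, higher in mole-rat heart than in liver, cannot be set against liver in this way.

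The genes around these routes were counted in the main heart contrast, in which 10.8% of all genes were higher in mole-rats and 12.6% lower. Of them, 3 of 7 hexose transporters tested passed, all higher in mole-rats, 3 of 19 genes of fructose and mannose metabolism were higher and 3 lower, and 2 of 12 polyol and osmolyte genes were higher and 3 lower. The medians of these lists were 0.91, -0.22 and 0.12, against -0.01 over all genes. Slc5a1, the sodium-glucose cotransporter SGLT1, was higher in both mole-rats than in both outgroups (a difference of 1.79 in value, SE 0.12). It had 0 reads in every guinea pig heart. Whether those 0 reads reflect its level or a gene not matched to the mouse identifier was not tested, so its differences from guinea pig are uncertain. Slc2a13, the proton myo-inositol cotransporter, was higher on average by 1.91 (SE 0.19).

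Of the enzymes around fructose in heart, Pfkfb4, which sets fructose 2,6-bisphosphate, was higher in all 4 pairings (1.71, SE 0.19), as was Xdh, xanthine oxidoreductase, which makes urate (2.30, SE 0.15). Fbp2, the muscle fructose bisphosphatase, was higher on average by 2.40, from 11.22 in naked mole-rats to 6.17 in guinea pigs. Tpi1, triosephosphate isomerase, a glycolytic enzyme that every cell uses, is listed at 0 in every Damaraland library of both tissues. No difference is read from it, and it is counted among the lower genes of the fructose and mannose list in both tissues.

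Purine and urate genes, the partners of the urate transporter Slc2a9, were 4 of 7 higher and 1 lower in heart (10.8% and 12.6% of all genes) and 2 of 10 higher and 3 lower in liver (15.1% and 13%). Uox, urate oxidase, was lower in both mole-rats than in both outgroups in liver (-6.86, SE 0.15), with means of 7.23 in naked mole-rats, 5.04 in Damaraland mole-rats, 11.36 in guinea pigs and 14.62 in mice. Abcg2, a urate exporter, was lower in liver in all 4 pairings as well (-3.48, SE 0.24). Ampd2, an AMP deaminase, was higher in heart on average by 1.42. Slc2a9 itself did not pass in the main contrast of either tissue, at -0.02 (SE 0.16) in heart and -0.16 (SE 0.15) in liver.

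In liver, 2 of 7 hexose transporters passed, both higher in mole-rats, 4 of 20 fructose and mannose genes were higher and 5 lower, and 2 of 12 polyol and osmolyte genes were higher and 3 lower, with medians of 0.18, 0.07 and -0.26 against 0.02 over all genes. Of all liver genes 15.1% were higher and 13% lower in this contrast. Slc2a10 (GLUT10) was higher in all 4 pairings by 3.43 (SE 0.22) on average, and Gckr, the regulator of glucokinase whose grip is loosened by fructose 1-phosphate, by 2.09 (SE 0.16). Xylb, xylulokinase, was higher by 1.63 and Hk3, a hexokinase, lower (-2.03), each in all 4 pairings, where 3.42% of all liver genes were higher in mole-rats in all 4. Fbp2 had a mean of 13.11 in guinea pig liver and of 4.41 to 4.64 in the other 3 species. Whether reads are assigned to Fbp2 and the related Fbp1 alike in every species was not measured, so its species differences in both tissues are uncertain to that extent. Slc6a6, the taurine transporter, was lower on average (-2.02), with mouse at 11.01 and the others at 6.32 to 6.93, and Slc6a20a was higher (2.88), with mouse at 4.47 and the others at 9.98 to 10.26.

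The last list held genes of fructose-responsive transcription and fatty acid synthesis, a fate of fructose carbon. In the main liver contrast 8 of 16 were higher in mole-rats and 1 lower (15.1% and 13% of all genes), with a median of 1.07 against 0.02 over all genes. The counts differed by outgroup. Against mouse, naked mole-rat was higher in 2 and lower in 6 (21.1% and 20.1% of all genes), with a median of -0.67, and Damaraland mole-rat higher in 6 and lower in 2 (20.9% and 18.4%), with a median of 0.29. Against guinea pig, naked mole-rat was higher in 10 and lower in 3 (19.4% and 18.5% of all genes), with a median of 1.48. Damaraland mole-rat was higher than guinea pig in 10 and lower in 2 (19.1% and 17.1%), with a median of 2.19. By pairs, guinea pig was below mouse in 9 of 16 and above in 1 (18.4% of all genes were lower), with a median difference of -2.03, and naked mole-rat was below Damaraland mole-rat in 10 and above in 1, with a median of -1.05 (17.6% of all genes were lower). Fasn, fatty acid synthase, had means of 14.84 in naked mole-rats, 15.90 in Damaraland mole-rats, 10.92 in guinea pigs and 13.79 in mice. Thrsp, a lipogenic nuclear protein, had 11.41, 12.94, 5.73 and 12.58. Tm6sf2, a liver lipid export factor, and Mlx, the dimer partner of the carbohydrate-response factor Mlxipl, were higher in all 4 pairings, by 2.62 and 1.86. Mlxipl itself was -0.88 (SE 0.30) and did not reach the size threshold. In heart the same list gave 4 higher and 2 lower of 15 (10.8% and 12.6% of all genes), led by Acaca (2.81) and Arrdc4 (-2.17), with Tm6sf2 higher in all 4 pairings (1.66).

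**Figure D5:**
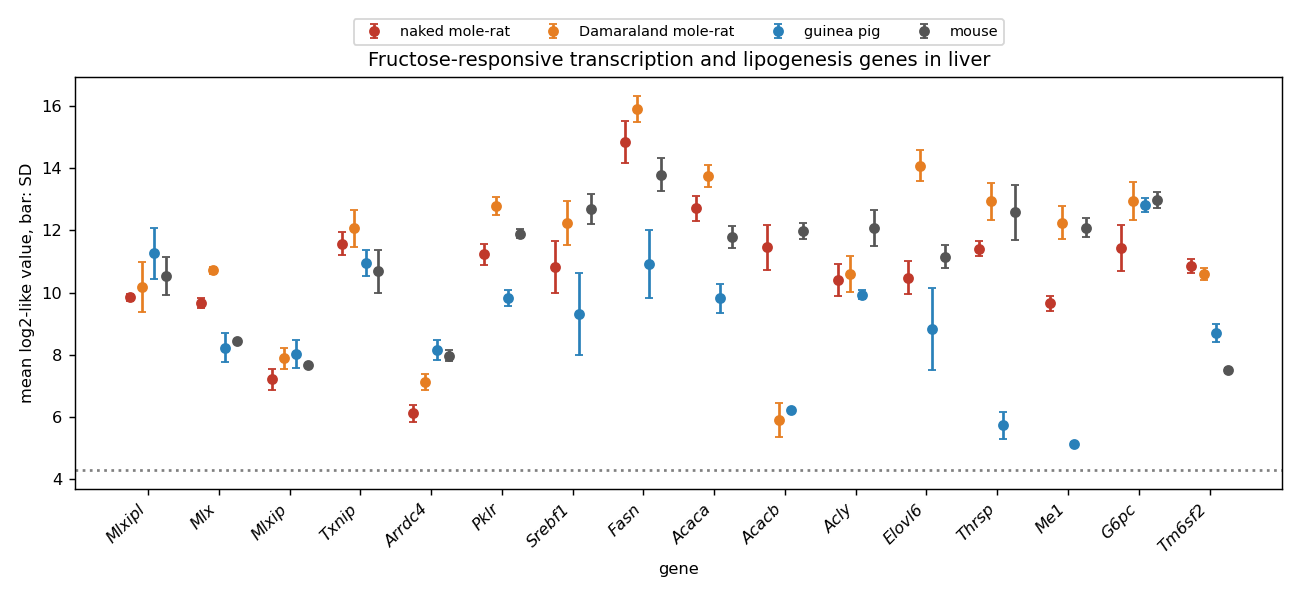
Liver means by species, with bars for the SD, of the genes of fructose-responsive transcription and fatty acid synthesis (variance-stabilised scale), and a dotted line at the value of 0 reads. Guinea pig is the lowest of the 4 species for Fasn (10.92) and Thrsp (5.73).

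The genes whose values ran most like those of each member over the 14 libraries of a tissue were also listed, by Pearson r and with no test, since the points share species, libraries and depth. For heart Slc2a5 they were Syce3 (0.983), Ociad2 (0.981) and Gadd45g (0.975), and for liver Slc2a5 Eml2 (0.949), Gm17018 (0.946) and Sergef (0.937). Heart Khk ran with Eml2 (0.942), Fbxw4 (0.934) and Atad3a (0.933). Liver Khk ran with Me1 (0.962), the malic enzyme of the lipogenic list above, with Slc48a1 (0.961), a haem transporter, and with Pklr (0.960), the liver pyruvate kinase of the same list. In heart the nearest gene was Phlda3 for Tkfc (0.952), Yae1d1 for Sord (0.989), Usp5 for Akr1b3 (0.846), Scn4b for Slc2a8 (0.987) and Pqbp1 for Slc2a9 (0.938). In liver it was Ncaph2 for Tkfc (0.988), Ckb for Sord (0.96), Praf2 for Akr1b3 (0.953), Dpy19l3 for Slc2a8 (0.985) and Gbf1 for Slc2a9 (0.929). Akr1b3 in heart, the member with the narrowest spread, had the weakest nearest neighbour.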

How the data were processed

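RNA of 14 heart and 14 liver libraries was measured by sequencing of ribosome-depleted total RNA, per the labels' protocols. The authors deposited 1 table a tissue of variance-stabilised, log2-like values for 13928 mouse gene identifiers, of which 13921 matched a symbol. The submitters' processing notes name cutadapt, Salmon 013.1, DESeq2 and GRCm38, without their roles. The tables hold 26 columns of other samples, which were not used. Inverting the transform gave whole reads for 100% of values (tolerance 1e-06). These summed to 4089633 to 26985779 reads in heart and 11220505 to 21467939 in liver. Counting error is therefore large only for genes with few reads.

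Genes with a mean at least 1 above the value of 0 reads were tested, 10667 in heart and 10887 in liver. All 7 members were kept in both. Species were compared within each tissue with limma 3.58.1 (R 4.3.3) with a trended prior, and p-values were adjusted over all genes tested. The fits took species as the only factor. On simulated data 4-fold changes were recovered at 100% in the mole-rat contrast of both tissues, and 2-fold changes at 17% in heart (11067 genes) and 34% in liver (11315 genes). The changes were placed only in genes with higher mean reads, with the same spread setting for every gene and no other species differences. Recovery at low read numbers, where several members lie in heart, was not measured. Same-numbered libraries of different species are different animals. Their deviations gave 18 correlations of -0.261 to 0.301 in heart, 2 of them over 0.1. In liver they gave 16 of -0.232 to 0.15, 5 of them over 0.1. Alternatives were other filters, scalings and thresholds, voom on recovered reads, the replicate number as a block and leaving out each library.

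The members, lists and rules were chosen with earlier results of these data known. Besides the members, the text names list genes that passed in all 4 mole-rat to outgroup pairs in 1 direction, the 2 per list with the largest average contrast among those that passed, and the nearest genes by correlation. Mlxipl and Apoa1 were named after their values were seen.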

Additional observations from a re-analysis of the deposited data

Results flagged for a closer look

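The Slc2a8 value of naked mole-rat liver replicate 3 was 7.08, far below the other 3 livers of its species, which lay at 7.72 to 7.79. Of 24 checks, each of 1 gene or the read total within a group of 4 or 5 libraries, this was the 1 that stood out. Chance flags about 1 check in 20, so 1 flag in 24 checks is near what chance gives. The same animal's liver had the highest Slc2a5 value of its species, 9.87.

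For 5 gene and species pairs the libraries of the 2 species did not overlap in either tissue and the difference had opposite signs in heart and liver. These are 11.9% of the 42 gene and pair combinations of the 7 members, beside 9.08% of the 60654 combinations over all genes tested in both tissues. Whether the tissues differ was not tested, since the tables were made separately. Several of these differences did not pass the test within their tissue. For Tkfc, guinea pig minus mouse was 0.69 in heart (limma adjusted p = 0.0527, not passed) and -3.69 in liver. For Sord, Damaraland mole-rat minus guinea pig was 1.53 in heart and -1.20 in liver. Slc2a8 gave 0.63 in heart (under the size threshold) and -1.65 in liver for naked minus Damaraland mole-rat, and -1.70 and 1.24 for Damaraland mole-rat minus mouse. For Slc2a9, naked mole-rat minus mouse was 0.91 in heart and -0.75 in liver, both under the size threshold.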

How the results depend on the processing

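Of the 7 members, the number that passed in the heart mole-rat contrast, 1, became 4 with no size threshold and 2 with voom, and ran from 1 to 2 on leaving out a library (2 without naked heart replicate 3). The heart pair count of 17 became 10 when only genes above the table median were kept, since 4 members then remained, and ran from 17 to 19 on leaving out a library. With no size threshold the heart pair count was 23 of 42, and the liver counts were 6 of 7 members and 28 of 42 pairs. Without that threshold 67.3% of all heart genes and 68% of all liver genes passed in the mole-rat contrast. By species pair the shares were 59.6% to 66.6% in heart and 58.8% to 67.7% in liver, so the members did not stand out. Shares over all genes were not counted for the other settings. In liver the count of 4 held on leaving out each library, and the pair count of 24 ran from 23 to 25. With the replicate number as a block the counts were 1 and 17 in heart and 4 and 26 in liver. That block, which groups different animals by library number alone, changed the Slc2a9, Tkfc and Slc2a5 pairs named above. The heart Slc2a9 contrast of -0.02 took the other sign with libraries centred (0.022) and voom (0.040), and ran from -0.10 to 0.075 on leaving out a library. No difference that passed changed sign in these settings. Leaving out a mouse liver library leaves 1, whose spread is assumed to be like that of the other species. Guinea pig liver Slc2a5 and Slc2a8 hold 1 to 7 reads a library, so no ratio to them is given. Those libraries were not shallow, at 13945522 to 21467939 reads. Whether the low counts reflect the level of these genes or poor matching to the mouse identifiers was not tested.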
